A study of Mus musculus with 6 samples.

Results

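The nuclear genes of mitochondrial complex I were expressed at nearly the same level in dendrin knockout and littermate control glomeruli, and varied together from mouse to mouse. The group comprises 36 genes, chosen by name as nuclear-encoded subunits, out of 18194 genes that have a probe set of their own on the array. A probe set of their own was found for 34 of the 36, and 33 of these gave a signal above log2 4, the level under which a probe set is called dim here. Of these 33 subunit genes, 28 had a higher mean without dendrin and 5 a lower one, against 60.1% higher among all genes not dim. The median difference of the subunit genes was 0.06 on the log2 scale (3.93%). None passed an adjusted p of 0.05.

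Glomeruli came from 3 dendrin knockout mice and from 3 of their littermates as control, all 13 months old, and an Affymetrix whole-genome array was run for each mouse. Dendrin is a protein of the podocyte slit diaphragm. The knockout mice lack it in all cells, since a cassette of eGFP and a neomycin-resistance gene takes the place of the whole coding sequence, and the line was bred from targeted embryonic stem cells. The labels give the genetic background as 129S6SvEv/C57BL6, whereas the study's methods name that as the strain of the stem cells and describe mice backcrossed for several generations to C57BL/6. The labels call the littermates control, and the study writes of the same comparison as knockout over wild-type. Values are GCRMA values, background-corrected and quantile-normalized signals on the log2 scale, and differences are knockout minus control. As a check of the labels, Ddn, the dendrin gene, was at 3.80, 3.81 and 3.80 without dendrin and at 12.22, 12.81 and 12.31 in controls.

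Complex I, or NADH:ubiquinone oxidoreductase, is the entry point of electrons from NADH into the respiratory chain. It is built like an L, with a matrix arm that oxidizes NADH and passes electrons along iron-sulfur clusters to ubiquinone, and a membrane arm that pumps protons. A small set of core subunits does the chemistry, and the accessory subunits surround and stabilize them. The core of the membrane arm is encoded by mitochondrial DNA, whereas the genes described here are nuclear. Tubule cells of the kidney, the proximal tubule above all, are rich in mitochondria, and the cells of the glomerulus hold fewer.

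Control 2 stood apart from the other libraries, and control 3 did so for the proximal tubule genes. In control 2 the median of 12 proximal tubule genes was 1.34 above the mean of the other arrays, that of 5 genes of the later tubule segments (loop, distal tubule, collecting duct) was 2.59 above it, and that of 18 leukocyte genes was -1.93 relative to it. In control 3 the median of the proximal tubule genes was -1.04 relative to the other arrays. Counts and medians of the members and of the other lists are also given without control 2, and those of the members without control 3. The podocyte marker Nphs1, which encodes nephrin, lay between 12.45 and 12.90 in all mice. The collecting duct marker Aqp2 and the proximal tubule marker Slc22a6 were dim. However, 12 of 18 proximal tubule genes and 5 of 16 genes of the later segments were not dim. Within these glomeruli, fewer cells of a type and less RNA per cell cannot be told apart.

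The members of the group differ in how well the array measures them. Ndufa11 and Ndufs6 are represented only by probe sets shared with other genes and were not analysed. The probe set of its own for Ndufb4 was at the floor of the array, the same value in all 6 mice, and its brighter probe sets are shared, so that no level is given. The other 33 lay between a mean of 9.28 for Ndufs4, an accessory subunit of the matrix arm, and 12.95 for Ndufa1, a small subunit of the membrane arm. Signals of different probe sets are not comparable as levels, and these values describe only how far the genes stood above background.

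The 5 promoters below belong to the members whose difference or pattern the results turn on: Ndufa13, Ndufb2 and Ndufa8, whose groups did not overlap, Ndufb3, which had the highest difference, and Ndufb6, which followed the other subunits least. Each is the 250 bases before the start of the gene (RefSeq, GRCm38.p6), 5′ to 3′ on the strand of the gene. Capitals mark matches, on either strand, to the 6 motifs described after them.
Ndufa13 (chr8:69902021-69902270, minus strand): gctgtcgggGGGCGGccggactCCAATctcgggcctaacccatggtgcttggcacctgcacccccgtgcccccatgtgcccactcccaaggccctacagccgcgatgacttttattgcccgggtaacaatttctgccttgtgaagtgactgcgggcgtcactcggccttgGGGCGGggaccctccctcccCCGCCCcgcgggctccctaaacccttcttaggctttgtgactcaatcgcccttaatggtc
Ndufb2 (chr6:39592315-39592564, plus strand): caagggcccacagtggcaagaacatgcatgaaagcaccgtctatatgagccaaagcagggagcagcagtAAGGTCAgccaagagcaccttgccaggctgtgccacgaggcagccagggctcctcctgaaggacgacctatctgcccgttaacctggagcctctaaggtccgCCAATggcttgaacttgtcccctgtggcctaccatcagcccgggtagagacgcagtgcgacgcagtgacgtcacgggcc
Ndufa8 (chr2:36049339-36049588, minus strand): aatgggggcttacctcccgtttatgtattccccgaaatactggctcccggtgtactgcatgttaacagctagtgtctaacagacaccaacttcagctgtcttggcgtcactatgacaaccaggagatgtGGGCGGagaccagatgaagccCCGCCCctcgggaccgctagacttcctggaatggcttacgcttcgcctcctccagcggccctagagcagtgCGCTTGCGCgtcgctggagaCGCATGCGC
Ndufb3 (chr1:58586147-58586396, plus strand): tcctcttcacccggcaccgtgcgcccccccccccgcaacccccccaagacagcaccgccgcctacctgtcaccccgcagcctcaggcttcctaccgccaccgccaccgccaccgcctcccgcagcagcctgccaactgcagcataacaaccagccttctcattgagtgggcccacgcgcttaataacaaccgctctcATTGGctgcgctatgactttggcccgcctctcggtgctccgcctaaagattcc
Ndufb6 (chr4:40279422-40279671, minus strand): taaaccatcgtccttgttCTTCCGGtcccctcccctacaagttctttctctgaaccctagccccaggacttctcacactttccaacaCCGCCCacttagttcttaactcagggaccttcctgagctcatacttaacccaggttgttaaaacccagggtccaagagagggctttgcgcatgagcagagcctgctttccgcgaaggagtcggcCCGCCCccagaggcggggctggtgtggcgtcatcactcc

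In these windows Ndufa8 holds a pair of NRF1 motifs, GCGCANGCG, read on the other strand at 29 to 21 and at 9 to 1 bases before the start. NRF1 is a transcription factor known for its part in the expression of respiratory chain genes. Ndufb2 holds a half-site of the nuclear receptor ERR alpha, AAGGTCA, at 181 to 175 bases before the start. Ndufb6 holds an ETS motif, CCGGAAG, the kind of site bound by GABPA, at 232 to 226 bases before the start. Among the 33 members with a promoter in the RefSeq table, 6 (18.2%) held the NRF1 motif, against 5.86% of all genes. They were Ndufa5, Ndufa8, Ndufa11, Ndufb4, Ndufs5 and Ndufs6, 3 of which gave no value on the array. The ETS motif was found in 3 members (9.09%, all genes 7.83%), the ERR alpha half-site in 3 (all genes 4.70%) and the YY1 motif ATGGCGG in 3 (all genes 2.58%). The SP1 motif GGGCGG was found in 14 (42.4%, all genes 35.4%) and the CCAAT box, CCAAT, in 10 (30.3%, all genes 37.5%). The median GC content was 57.6% for the members' windows and 52.4% for all windows, a difference that bears on GC-rich motifs. A match of letters is a description and not evidence of binding, and Ndufs1, Ndufb9 and Ndufa2 were not scanned.

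The comparison of the groups asked whether the loss of dendrin was accompanied by a change in these subunits. Differences of single members ran from -0.20 for Ndufa4 to 0.17 for Ndufb3. The median size of the members' difference was 0.06, against 0.09 for all 10379 genes that are not dim. Their median SD within a group was smaller too, 0.08 against 0.12 for all these genes. It was 0.09 for genes in the same range of signal. The 95% interval of limma lay within a 1.5-fold change in either direction for 32 of 33 members, Ndufa4 being the exception. The share of members higher in knockout, 84.8%, stood against 60.1% of all genes not dim and 63.0% of the 3624 genes in the same range of signal. The median difference of these brighter genes was 0.03. Since the members follow each other, as described below, they are not 33 separate observations.

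**Figure D1:**
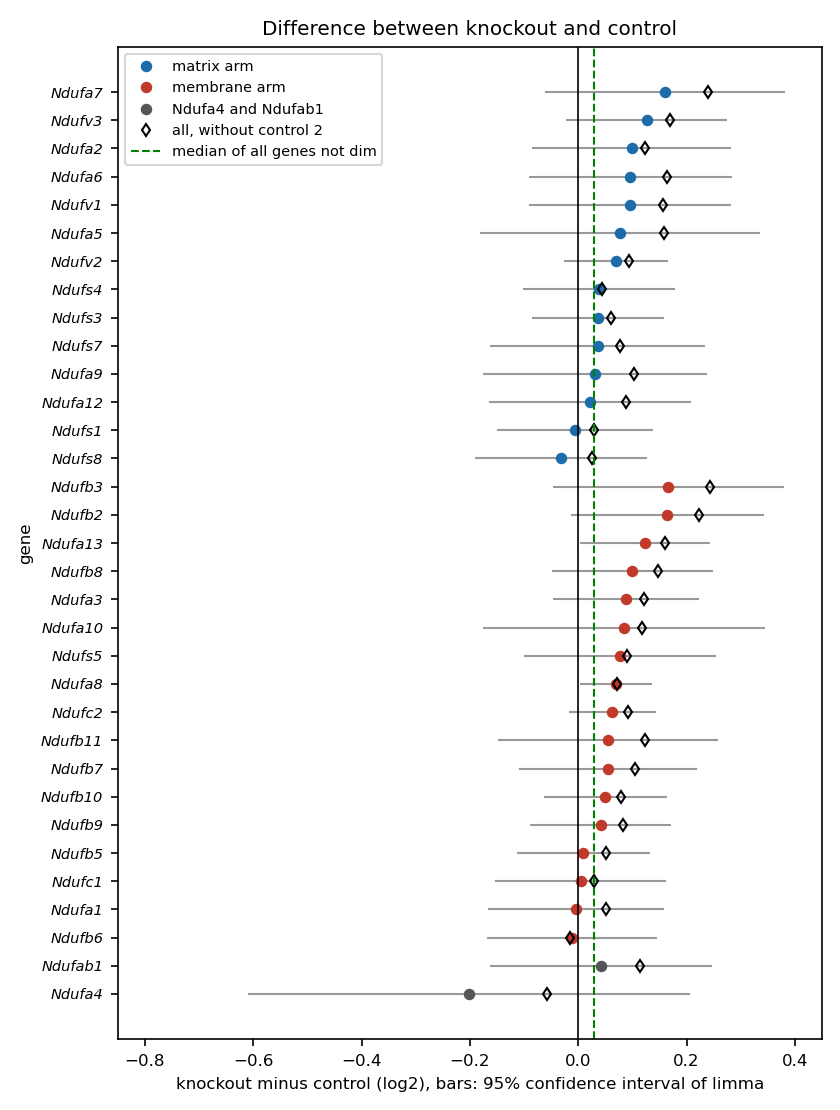
Knockout minus control difference (log2) of the 33 complex I subunit genes that are not dim, with the 95% confidence interval of limma as bars (3 mice against 3), coloured by arm, and the difference without control 2 as open diamonds. The green dashed line is the median of all genes not dim, 0.03; 28 points lie above 0, and most diamonds lie to the right of their points.

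At an unadjusted p under 0.05 in limma, 2 members were higher and 0 lower in knockout glomeruli, Ndufa13 and Ndufa8, which is 6.06% of the members. Of all genes not dim, 5.75% were so called in the higher direction and 2.58% in the lower. All 3 knockout mice were above all 3 control mice for 3 members (9.09%), against 9.36% of all genes, and below them for 0 members, against 4.5%. The 2 shares in the higher direction lay close to those of genes in general, and the 2 in the lower direction were 0. Of the 3624 genes in the same range of signal, 11.8% had every knockout mouse above every control mouse. No member passed the Benjamini-Hochberg adjusted p of 0.05 over all probe sets, where 0.00222% of probe sets (Ddn alone) did, and the adjusted p was 1 for every member in limma.

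Ndufa13, also known as GRIM-19, sits in the membrane arm near the junction of the arms and has been studied for a role in cell death. Its value was 12.13, 12.21 and 12.16 in knockout and 12.03, 12.12 and 11.98 in control mice. The groups did not overlap, but the lowest knockout mouse and control 2 lay 0.01 apart. The difference was 0.12 (standard error 0.04, 95% interval 0.004 to 0.24, adjusted p = 1 in limma).

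Ndufb2, a small accessory subunit of the far part of the membrane arm, was at 11.00, 11.08 and 11.05 in knockout and at 10.87, 10.99 and 10.77 in control mice. Again control 2 came closest to the knockout mice. The difference was 0.16 (standard error 0.07, 95% interval -0.01 to 0.34). A dimmer probe set of Ndufb2 differed by 0.15, and there control 2 was level with the knockout mice.

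Ndufa8, which faces the intermembrane space, was at 10.90, 10.97 and 10.90 in knockout and at 10.83, 10.86 and 10.87 in control mice. The 3 control mice lay close together here, and control 2 was in the middle. The difference of 0.07 (standard error 0.02, 95% interval 0.003 to 0.14, adjusted p = 1 in limma) was the smallest of the 3 members whose groups did not overlap. For all 3, an exact permutation test over the mice gave p = 0.1, two-sided, the smallest that 3 mice against 3 allow.

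Ndufb3, a further subunit of the membrane arm, had the highest difference, 0.17 (standard error 0.08), with 11.00, 11.09 and 11.08 in knockout and 10.80, 11.04 and 10.82 in control mice. Ndufa7, an accessory subunit of the matrix arm, was at 11.63, 11.71 and 11.63 in knockout and at 11.39, 11.66 and 11.45 in control mice, a difference of 0.16 (standard error 0.08). In both genes, controls 1 and 3 were below every knockout mouse and control 2 lay among them, so that the groups overlapped.

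**Figure D2:**
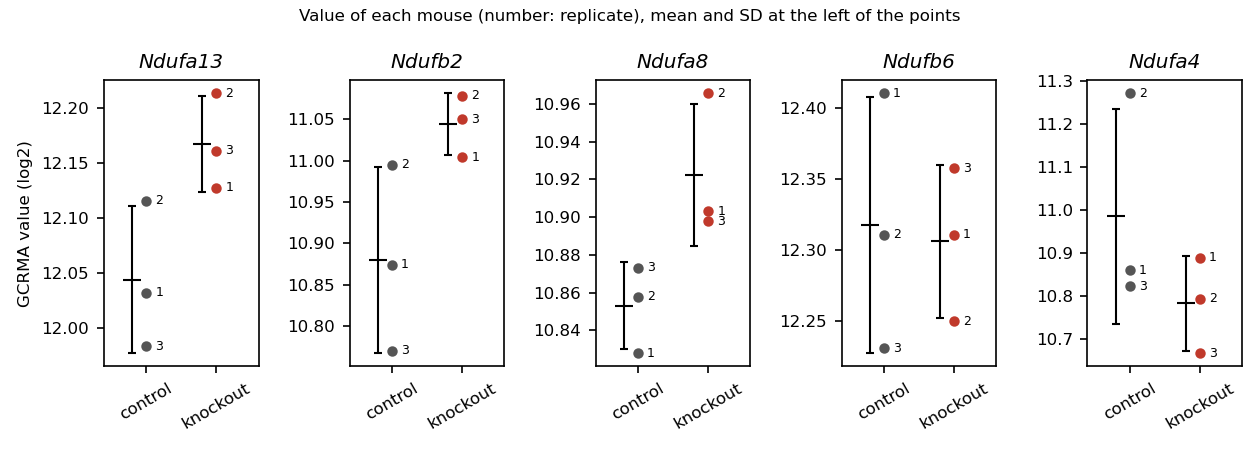
GCRMA values (log2) of single mice for 5 complex I subunit genes, control in grey and knockout in red, with the mean and SD of 3 mice at the left of the points and the replicate number beside each point; each panel has its own axis, which does not start at 0. The groups are separate for Ndufa13, Ndufb2 and Ndufa8, overlap for Ndufb6, and overlap for Ndufa4 with control 2 far above the other mice.

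The core subunits, those that carry out NADH oxidation and electron transfer, differed little. Of 6 measured, 4 were higher and 2 lower, with a median difference of 0.04 and none at an unadjusted p under 0.05. Without control 2 all 6 were higher, with a median of 0.07, where 59.8% of all genes not dim were higher. Ndufv1 binds NADH and the flavin that takes up its electrons. It was at 11.38, 11.40 and 11.47 in knockout and at 11.21, 11.44 and 11.31 in control mice, a difference of 0.10 (standard error 0.07). Ndufv2, its iron-sulfur partner, was at 11.93, 11.98 and 11.97 against 11.82, 11.93 and 11.91, a difference of 0.07 (standard error 0.04). In both, control 2 was the highest control mouse and lay within the range of the knockout mice.

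Ndufs1, the large iron-sulfur subunit of the same module, was at 10.12, 10.21 and 10.26 in knockout and at 10.14, 10.27 and 10.20 in control mice, a difference of -0.01 (standard error 0.05). Ndufs3, of the module that leads to ubiquinone, was at 10.70, 10.81 and 10.68 against 10.68, 10.74 and 10.66, a difference of 0.04 (standard error 0.05). The groups overlapped for both genes. Ndufs7, which holds the last iron-sulfur cluster before ubiquinone, was at 11.46, 11.61 and 11.55 against 11.55, 11.58 and 11.38, a difference of 0.04 (standard error 0.07). Ndufs8, its neighbour with further iron-sulfur clusters, was at 12.67, 12.64 and 12.62 against 12.59, 12.79 and 12.65, a difference of -0.03 (standard error 0.06). In Ndufs8 control 2 was the highest of all mice, and without it the difference was 0.02. The signs of Ndufs1, Ndufs3, Ndufs7 and Ndufs8 also turned when other single mice or settings were changed.

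Both arms of the complex gave the same picture. In the matrix arm, 12 of 14 members were higher, with a median difference of 0.05 and 0 at an unadjusted p under 0.05. In the membrane arm, 15 of 17 were higher, with a median of 0.06. Without control 2 the medians were 0.10 and 0.09, with 14 of 14 and 16 of 17 higher, against 59.8% of all genes not dim. All 3 members whose groups did not overlap belong to the membrane arm, but no difference between the arms was tested. Ndufa9, an accessory subunit at the junction of the arms, was at 11.21, 11.14 and 11.18 in knockout and at 11.02, 11.29 and 11.12 in control mice. Here control 1 was the lowest and control 2 the highest mouse of all, and the difference was 0.03 (standard error 0.08).

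Ndufa4 and Ndufab1 are set apart, because Ndufa4 is now counted as a subunit of complex IV, and Ndufab1 is the mitochondrial acyl carrier protein, which also serves fatty acid synthesis. Ndufa4 was at 10.89, 10.79 and 10.67 in knockout and at 10.86, 11.27 and 10.82 in control mice. Control 2 alone stood high, and the other 5 mice spanned 10.67 to 10.89. The difference of -0.20 (standard error 0.15), the lowest of the group, was -0.06 without control 2. Ndufab1 differed by 0.04 (standard error 0.08). The 19 members whose mice are not given one by one differed by -0.0034 (Ndufa1) to 0.13 (Ndufv3), 18 of them upwards, and the groups overlapped for all 19.

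Several members have more than 1 probe set, which gives another reading of the same gene. Of the 65 probe sets of the members that are not dim, 58 were higher and 7 lower in knockout, and 5 were at an unadjusted p under 0.05. Of all genes not dim, taken at 1 probe set each, 60.1% were higher. At that p, 5.75% of them were called higher and 2.58% lower. Ndufc2, a membrane arm subunit, differed by 0.06 on its brightest probe set, where control 2 lay among the knockout mice. On 2 dimmer probe sets it differed by 0.19 (standard error 0.06) and 0.11 (standard error 0.04), and there the groups did not overlap. The second probe set of Ndufa3 differed by 0.12 (standard error 0.04) with separate groups, against 0.09 with overlap on the brightest. In 4 of 19 members with several such probe sets the signs differed: Ndufa12, Ndufab1, Ndufb6 and Ndufs8. The brightest probe sets of 6 members, Ndufa2, Ndufa12, Ndufa13, Ndufab1, Ndufc2 and Ndufv1, are of types whose probes can also match other transcripts.

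The members that gave a signal varied together from mouse to mouse, within as well as between the genotypes. Over the 6 mice, the median Pearson correlation of the 528 pairs of members was 0.63, and 91.3% of pairs were above 0. For all pairs of genes not dim the median was 0.04, with 52.5% above 0, and for genes in the same range of signal it was 0.05. Most other lists varied together as well. The median within the list was 0.72, 0.36, 0.69 and 0.75 for complexes II, III, IV and V. It was 0.72 for podocyte, 0.58 for glomerular endothelial, 0.88 for proximal tubule and 0.95 for leukocyte genes. For mesangial and smooth muscle genes it was 0.03. The values share 6 arrays of 2 groups, and the pairs are not independent. With the mean of each group taken out, the median among members was 0.65. It ranged from 0.55 without control 3 to 0.69 without knockout 1 when 1 mouse was left out. The median was 0.58 within the matrix arm, 0.66 within the membrane arm and 0.65 between a member of one arm and one of the other.

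**Figure D3:**
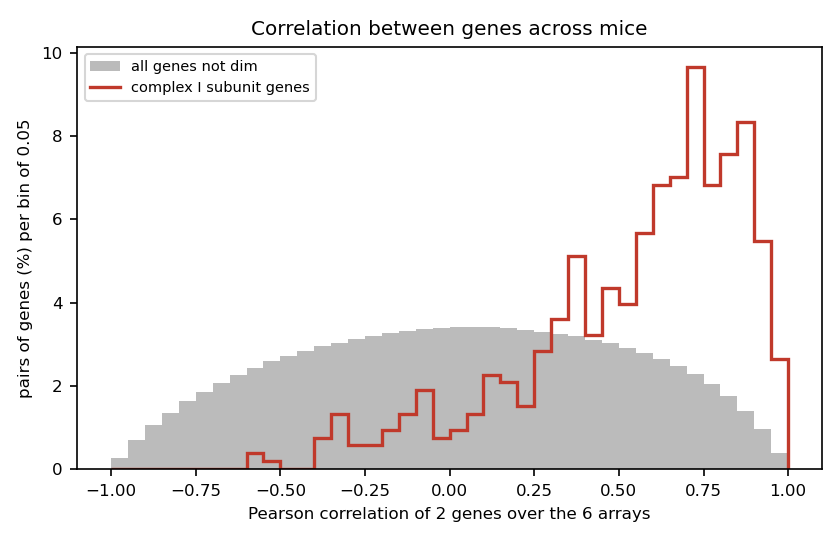
Distribution of Pearson correlations over the 6 arrays for the 528 pairs of complex I subunit genes (red line) and for all pairs of genes not dim (grey), as the percentage of pairs per bin of 0.05. The subunit genes are shifted to positive values with a median of 0.63, whereas all pairs centre on 0.04.

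Ndufb11, Ndufa6 and Ndufb9, accessory subunits of both arms, followed the others most closely, with a median correlation with the other members of 0.80, 0.79 and 0.78. Ndufb6, an accessory subunit of the membrane arm, followed them least, with a median of -0.14 and negative values with 24 members. It was at 12.31, 12.25 and 12.36 in knockout and at 12.41, 12.31 and 12.23 in control mice, with control 1, low for most members, as its highest mouse. The second probe set of Ndufb6 gave another picture. It correlated with the other members at a median of 0.76 and differed by 0.13 (standard error 0.07). Likewise Ndufc1 was at 0.16 on its brightest probe set and at 0.80 on its second. When all probe sets of a gene were averaged, 98.3% of pairs were above 0 and the median was 0.72.

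Mice of both genotypes stood at the upper end, and 2 of the control mice at the lower end. Relative to the mean of the other arrays, the median of the members was 0.01, 0.09 and 0.03 in knockouts 1, 2 and 3, and -0.07, 0.07 and -0.11 in controls 1, 2 and 3. Knockout 2 and control 2 were the high mice, controls 1 and 3 the low ones. Knockout 2 held the highest value of 17 members and control 2 that of 12. The lowest value was in control 3 for 17 members and in control 1 for 12, and in control 3 no member was above the mean of the other mice. The median of all genes not dim was likewise highest in knockout 2 and lowest in controls 1 and 3, over a narrower range of -0.03 to 0.03. The mean of the members' median was 0.04 ± 0.04 (SD, n = 3) in the knockout group and -0.03 ± 0.08 (SD, n = 3) in the control group, relative to the mean of all 6, so that the groups differed by about the spread between mice.

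**Figure D4:**
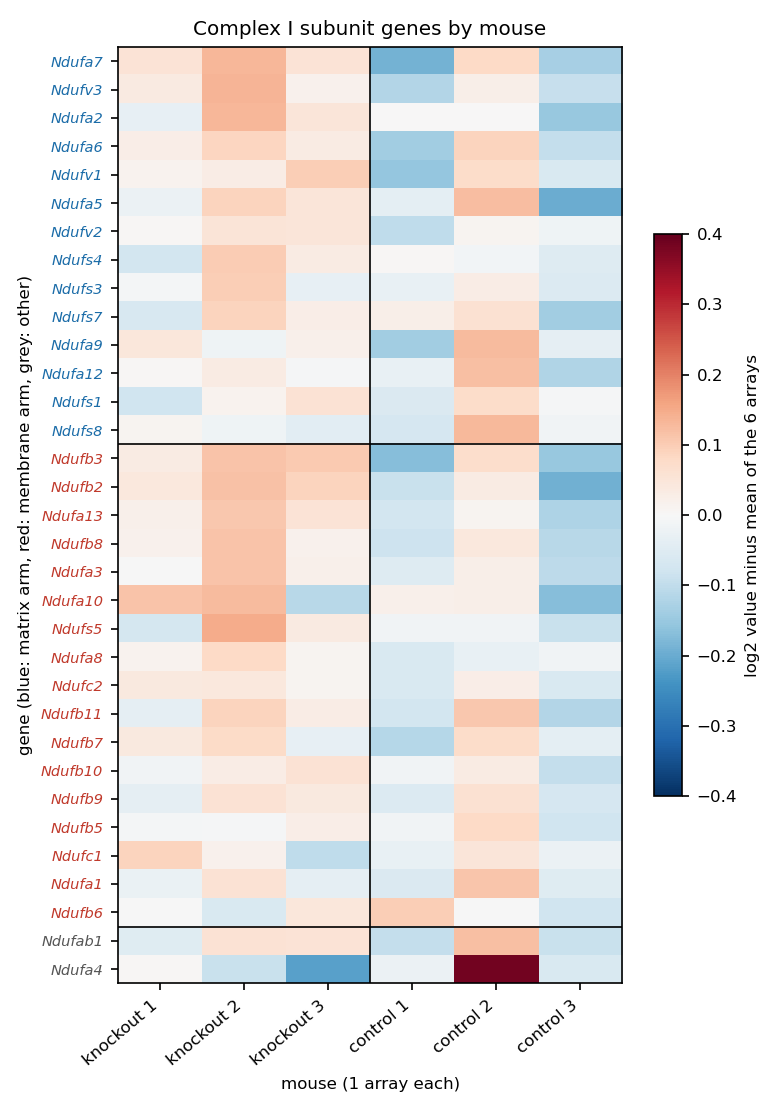
Value of each of the 33 complex I subunit genes in each mouse minus the mean of the 6 arrays (log2, red above and blue below), ordered by arm and by difference, with the knockout mice at the left and the control mice at the right of the vertical line. Controls 1 and 3 are blue for most genes, while control 2 and knockout 2 are mostly red; Ndufa4 in control 2 is the darkest cell.

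Control 2 was above both other control mice for 28 of 33 members, which held for 44.8% of genes not dim, and above all knockout mice for 12. Without it, 31 of 33 members were higher in knockout, against 59.8% of all genes not dim, and the members' median difference was 0.09 (6.67%). In limma 9 members (27.3%) were then higher at an unadjusted p under 0.05, where 10.3% of all genes were. Every knockout mouse was then above both remaining control mice for 21 members (63.6%), against 24.2% of all genes, and no member passed the adjusted p. The 9 members at that p were Ndufa6, Ndufa7, Ndufa13, Ndufb2, Ndufb3, Ndufb8, Ndufc2, Ndufv1 and Ndufv3. Without any other single mouse, 0 members were at an unadjusted p under 0.05, and the median ranged from 0.02 without control 3 to 0.08 without knockout 1. Without control 3, 10 of 33 members were lower, and the members' median of 0.022 lay just under that of all genes not dim, 0.0256. Without control 2 the median of all genes was 0.0338, so that the members' median lay 0.0594 above it, and with all mice it lay 0.0256 above it.

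The other genes of the respiratory chain moved with complex I from mouse to mouse. Factors that assemble complex I were higher in 13 of 16 cases, with a median difference of 0.10 (0.15 without control 2). Ndufaf8, the partner of the arginine-modifying enzyme Ndufaf5, was at 9.867, 10.004 and 9.942 in knockout and at 9.690, 9.717 and 9.769 in control mice. All its knockout mice were above all control mice and control 2 was in the middle of the controls, with a difference of 0.21 (standard error 0.04, adjusted p = 1 in limma). Ndufaf5 differed by 0.27 (standard error 0.10) and Ndufaf2, a late assembly factor, by 0.15 (standard error 0.06), both with separate groups and neither at an unadjusted p under 0.05. Every knockout mouse was above every control mouse for 9.36% of all genes not dim.

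All 4 genes of complex II were higher in knockout, with 2 at an unadjusted p under 0.05: Sdhd by 0.11 (standard error 0.04) and Sdhc by 0.08 (standard error 0.03), which anchor the enzyme in the membrane. Their median was 0.06, and 0.09 without control 2. In complex III 5 of 9 were higher (median 0.04), in complex IV 8 of 8 (median 0.05) and in complex V, the ATP synthase, 16 of 16 (median 0.06), where Atp5pb of its stalk differed by 0.12 (standard error 0.03) at an unadjusted p under 0.05. Without control 2 the medians were 0.10 (8 of 9 higher), 0.08 (8 of 8) and 0.11 (15 of 16) for complexes III, IV and V. None of these genes passed the adjusted p. At the unadjusted p under 0.05, 5.75% of all genes not dim were called higher. The median correlation of a gene of complexes II, III, IV and V with a complex I member was 0.65, 0.50, 0.66 and 0.67 over the 6 mice. Other mitochondrial proteins, such as citrate synthase and the import and channel proteins, were higher in 10 of 12 cases (median 0.04, and 0.09 with 11 higher without control 2), with the import protein Timm23 at 0.15 (standard error 0.03, unadjusted p under 0.05). Regulators of mitochondrial biogenesis were split, 6 higher and 6 lower, with a median of -0.01 that turned to 0.05 (7 higher) without control 2. Among them the coactivator Ppargc1a was at 3.77 to 3.99 in 5 mice and at 5.66 in control 2. It was under log2 4 in those 5 mice and counts as not dim only through control 2. Ndufa4l2, a relative of Ndufa4 and the only other gene of this family measured, differed by -0.03 (standard error 0.20), and by 0.12 without control 2.

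The genes of the cells in and around the glomerulus also moved between these mice. Of 9 podocyte genes, all 9 were higher in knockout, with a median of 0.15 (0.21 without control 2) and with Actn4, an actin crosslinker, at an unadjusted p under 0.05 (0.15, standard error 0.05). Their median was high in knockout 2, knockout 3 and control 2 (0.10, 0.12 and 0.12) and low in controls 1 and 3 (-0.18 and -0.18). That is nearly the order of the complex I members, with a median correlation of 0.67 between a podocyte gene and a member. Their log2 summed signal lay between 16.59 and 16.67 in knockout and between 16.46 and 16.73 in control mice. Of 10 glomerular endothelial genes 9 were lower, 4 of them at an unadjusted p under 0.05. At that p, 2.58% of all genes not dim were called lower. Kdr, a receptor of VEGF, was among the 4, at -0.22 (standard error 0.06). The endothelial genes had a median correlation of -0.24 with the members. Their median was -0.13, and -0.15 without control 2. Among 8 mesangial and smooth muscle genes 6 were higher, with a median of 0.09 and a correlation of 0.06. Without control 2 their median was 0.02, with 5 higher. The part of podocyte content in the level of the subunits was not tested.

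Tubule and leukocyte genes set control 2 apart from the mice of both genotypes, and proximal tubule genes set control 3 apart as well. Of 12 measured proximal tubule genes 5 were higher and 7 lower (median -0.01), and their log2 summed signal lay between 11.15 and 11.82 in knockout mice but at 11.30, 12.52 and 10.17 in control mice. Control 2 was thus highest and control 3 lowest. Among the members, control 3 was lowest for 17, but knockout 2 was highest for 17 and control 2 for only 12. The median correlation of the proximal tubule genes with the members was 0.56. All 5 measured genes of the later segments were lower (median -0.91). Their summed signal lay between 11.46 and 11.94 in 5 mice and at 13.70 in control 2, with a correlation of 0.33. Of 18 leukocyte genes 16 were higher (median 0.45), with a summed signal of 14.97 to 15.72 in 5 mice and 13.61 in control 2, and a correlation of -0.48. None of these tubule and leukocyte genes was at an unadjusted p under 0.05. Without control 2 the medians were 0.50, -0.06 and -0.21 for the 3 lists. Knockout 2, the other high mouse for complex I, was at 11.82 for the proximal list, second to control 2, and at 11.46 for the later segments, the lowest of all mice. The part of tubule material in the result was not tested. As a sign of RNA quality, the 3′ minus 5′ signal lay between -0.39 and -0.34 for Gapdh and between 0.42 and 0.51 for Actb in all mice.

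**Figure D5:**
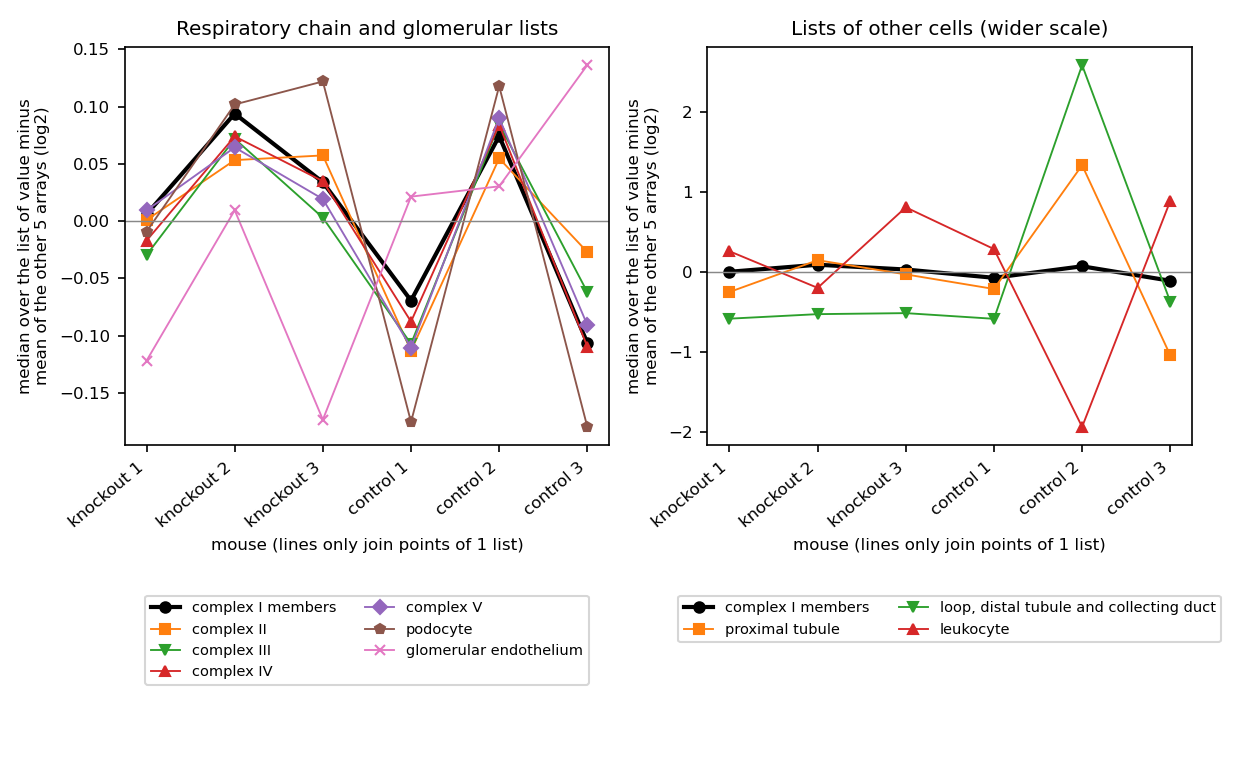
Median over the genes of a list of the value minus the mean of the other 5 arrays (log2) in each mouse, for complex I (black), complexes II to V, podocyte and endothelial genes at the left, and for tubule and leukocyte genes at the right on a wider axis. The respiratory chain and podocyte lists are high in knockout 2 and control 2 and low in controls 1 and 3. The podocyte and complex II lists are highest in knockout 3, and complex II is only slightly low in control 3 (-0.03). At the right control 2 stands out in all 3 lists and control 3 is lowest for the proximal tubule list.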

How the data were processed

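Total RNA of isolated glomeruli from 3 knockout and 3 control mice was profiled, 1 array per mouse. The deposited values are on the log2 scale: the authors processed the probe intensities with GCRMA (version 2.30.0 in the submitters' processing notes), which corrects background by probe sequence, normalizes quantiles between arrays and summarizes probe sets. Of its 45101 probe sets, 34958 are paired with 1 gene, 932 with several and 9211 with none. GCRMA leaves 16139 of them at 1 constant value. 

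Groups came from the labels. limma 3.58.1 in R 4.3.3 (lmFit and eBayes, two-sided) was fitted to all probe sets with no filter or covariate, with 4 residual and 0.312 prior degrees of freedom and Benjamini-Hochberg adjustment over all probe sets. A gene is represented by its single-gene probe set with the highest mean. Dim means a mean under log2 4. Lists were described by counts, medians and Pearson correlations (Python 3.11.15, numpy 2.4.6). Promoters came from RefSeq. The limma fit was tested on simulated data in which probe sets were drawn independently of each other. The array holds no counts, and the number of arrays limits the precision.

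The members and lists were chosen with earlier results of these data known. Values of every mouse were given for core subunits, members at an unadjusted p under 0.05 or with separate groups, the 3 highest and 3 lowest differences, and the 3 members least low in the array that deviates most, control 3. Ndufa9 was added after control 2 had been examined. Of other lists, up to 3 genes with the largest difference or any at an unadjusted p under 0.05 were named, and markers fixed for cell types. Alternatives were the methods' SAM (written out in R, 20 permutations of the arrays), a trended robust prior, filters on the mean or range, median centring, repeated quantile normalization, an offset of 16, array weights, a replicate block, other choices of probe sets and members, and leaving out each array.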

Additional observations from a re-analysis of the deposited data

How the results depend on the processing

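The count of members at an unadjusted p under 0.05 and higher in knockout (2) was the least stable value. It was 0 with a trended robust prior, with filters at a mean of log2 4 or 6, and with a range filter. It was 7 with median centring over all probe sets, 4 with centring over those not dim, 1 with repeated quantile normalization, 10 with array weights (weight of control 2 0.384) and 5 over all 76 probe sets. SAM gave 3. Leaving out each array gave 0 to 9, the 9 without control 2. The share of all genes not dim so called is given only for the main fit (5.75%) and without control 2 (10.3%). The other counts therefore cannot be set against genes in general. The median difference of all genes not dim also moved, from 0.03 to 0.0491 with median centring over all probe sets and 0.0358 with array weights. The count lower at an unadjusted p under 0.05 was 0 throughout, and the count at an adjusted p under 0.05 was 0 in every setting run. The lowest adjusted p in limma was 0.0958, under median centring over all probe sets. That centring gives the 16139 constant probe sets a shared difference between the groups, and they enter the adjustment. With centring over probe sets not dim, the lowest adjusted p in limma was 0.829. The number of members lower (5) was 2 with median centring over all probe sets (5 over those not dim) or array weights, 3 with averaged probe sets, 9 over the 76 probe sets, and 2 (without control 2) to 10 (without control 3) with 1 array left out. The median difference stayed at 0.05 to 0.08 in other settings and at 0.02 to 0.09 with 1 array left out, and the median correlation at 0.57 to 0.72 and 0.55 to 0.69.

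Signs turned for small differences only. With 1 array left out, Ndufa9 ranged from -0.03 (without control 1) to 0.103, Ndufb6 from -0.0544 to 0.0352 (without control 1; 0.0168 without knockout 2), Ndufs1 from -0.0366 to 0.0323 (without knockout 1; 0.0289 without control 2), Ndufs3 from -0.0027 (without knockout 2) to 0.0624, Ndufs7 from -0.0248 (without control 3) to 0.0768 and Ndufs8 from -0.0744 to 0.0245 (without control 2). With median centring over all probe sets Ndufb6 was 0.0079 and Ndufs1 0.013, and with array weights Ndufs1 was 0.0255 and Ndufs8 0.0075. The causes were not tested.

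The replicate numbers are shared by knockout and control mice. Same-numbered arrays correlated at 0.0949, 0.352 and 0.248 in their deviations from the group means. Arrays of different numbers correlated at -0.322 to 0.0943. Each array correlated best with its own number, but control 1 was almost level, at 0.0949 with knockout 1 and 0.0943 with knockout 3. The labels do not say whether the numbers mark pairs, and the main fit did not take them as pairs. Whether same-numbered arrays share a source of variation was not tested. With the replicate block, 6 members were at an unadjusted p under 0.05, 0 at an adjusted one. The share of all genes so called with the block is not given. With 3 mice a group, differences of a few percent cannot be resolved.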
